A study of Mus musculus with 6 samples.

Results

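The choroid plexus is the folded tissue in the brain ventricles whose epithelium secretes cerebrospinal fluid. It makes up a small share of the brain and carries a distinctive transcript set that includes a thyroid hormone carrier, folate and prolactin receptors, and channels and transporters for water and ions. A group of 10 choroid plexus epithelium genes was examined here: *Ttr*, *Enpp2*, *Kl*, *Folr1*, *Prlr*, *Kcnj13*, *Clic6*, *Aqp1*, *Slc4a5* and *Otx2*. They were chosen by symbol, as known genes of this epithelium but with earlier results of these data known, from the 37310 genes of the count table. All 10 of 10 were present.

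RNA was taken from the whole brain of 12-week-old male C57BL/6 mice, and 3 independent animals of each of 2 genotypes gave 1 library each. *Adar1* E861A/E861A *Ifih1*-/- mice were homozygous for a germline point mutation that abolishes RNA editing by ADAR1 while leaving the protein in place, and *Adar1* +/+ *Ifih1*-/- mice had normal *Adar1*. Both genotypes lacked *Ifih1*, the gene of the double-stranded RNA sensor MDA5, so no library came from an MDA5-sufficient brain. The comparison addressed the effect of lost ADAR1 editing on brain transcripts in the absence of MDA5. The groups are called E861A and wild type below.

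Library totals ran from 26853488 to 38076753 counts. *Adar*, the gene of ADAR1, overlapped between genotypes (161 ± 8.98 CPM in E861A and 150 ± 29.9 CPM in wild type; SD, n = 3; CPM, counts scaled to the library total), and the point mutation itself cannot be read from counts. *Ifih1* had 38 to 56 counts in each library. One library stood apart. E861A replicate 1 held 8416 counts of growth hormone *Gh* and 3274 counts of *Prl*, where no other library had more than 47 and 12, and *Pomc*, *Cga*, *Fshb* and *Pou1f1*, also pituitary genes, were likewise more than 5 times higher in it than in any other library. Of 10 pituitary genes listed, 9 were matched. The 8 of them other than *Chgb*, a secretory granule gene that brain also expresses, summed to 444 CPM in this library, 3.58 and 1.38 CPM in the other E861A libraries, and 1.33 to 2.63 CPM in wild type. *Chgb* itself stood at 297 ± 19.8 CPM in E861A and 335 ± 13.2 CPM in wild type, with an adjusted p of 0.317, or 0.0244 when libraries were blocked by replicate number. The main results that rest on E861A replicate 1 are given with and without it.

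The choroid plexus genes took 0.0550% to 0.0855% of all counts of a library. Divided by the exonic length of each gene in the annotation, mean CPM per kilobase over the 6 libraries was 247 for *Ttr* (range 150 to 299) and 110 for *Enpp2* (84.4 to 120). These ranges did not overlap, and both lay far above *Kl* at 4.50 CPM per kilobase and *Clic6* at 3.89, whose ranges overlapped each other. *Kcnj13* followed at 2.29 CPM per kilobase (1.94 to 2.90), apart from its neighbours on either side. *Otx2* at 1.56, *Prlr* at 1.46, *Aqp1* at 1.10, *Folr1* at 1.003 and *Slc4a5* at 0.733 CPM per kilobase formed a run in which each gene overlapped the next. The length of *Prlr*, 15494 exonic bases over 14 annotated transcripts, lowers its value if few of these transcripts are used. At the level of CPM, *Folr1* was the scarcest gene and was read from 49 to 101 counts per library, against 5289 to 13191 counts for *Ttr*.

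Across the comparison, none of the 10 genes passed an adjusted p of 0.05 in edgeR's quasi-likelihood test, in which 0.506% of the 13649 tested genes passed and 0.0952% passed as lower in E861A. Libraries of the same number tended to deviate together across genes, weakly for number 3, though no source says that these animals were paired. With libraries blocked by number, a pairing read from these same counts, 1 of 10, *Ttr*, was called as lower, against 1.16% of tested genes called in either direction. Without adjustment, 3 of 10 had p under 0.05, namely *Ttr*, *Enpp2* and *Kl*, and all 3 were lower in E861A, against 9.01% of tested genes in either direction and 4.23% lower. The same 3 genes were the only ones of the 10 whose CPM did not overlap between genotypes, against 13.8% of tested genes without overlap and 6.81% without overlap and lower. By sign alone, 7 of 10 log2 fold changes were below 0, against 50.5% of tested genes, and the median was -0.07 against -0.001 over all tested genes. The genes were chosen with earlier results of these data known, so these shares are descriptive only. In other tests, DESeq2 and limma-voom called 0 of the 10 genes and the likelihood ratio test of edgeR called 1. Over all 13649 tested genes the likelihood ratio test called 139, against 69 by the quasi-likelihood test, 82 by DESeq2 and 68 by limma-voom. In RNA of whole brain, fewer choroid plexus cells and less RNA per cell cannot be told apart.

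**Figure D1:**
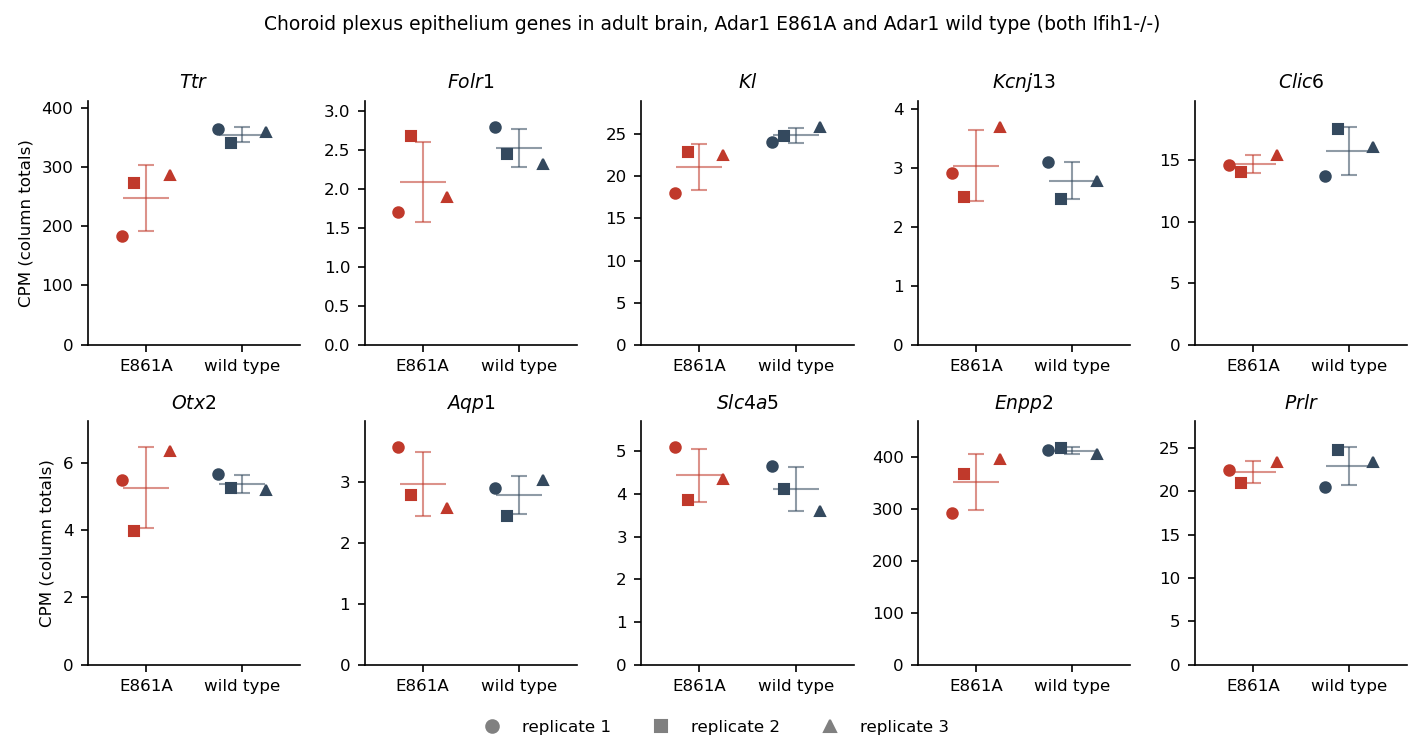
CPM of each choroid plexus gene (y axis, from 0; library total as denominator) in 3 E861A and 3 wild-type brains; each point is 1 library, its shape gives the replicate number, and lines with bars give the mean and SD. *Ttr*, *Enpp2* and *Kl* show no overlap between genotypes, with E861A replicate 1 lowest in each, and the other 7 genes overlap.

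The secreted products were considered first. *Ttr* (ENSMUSG00000061808; NCBIM37, chromosome 18, 20823751 to 20832825, 4 exons) encodes transthyretin, the thyroid hormone and retinol carrier that is among the most abundant transcripts of this epithelium. *Ttr* stood at 183, 274 and 286 CPM in E861A replicates 1 to 3 and at 365, 341 and 359 CPM in wild type. Every E861A brain lay below every wild-type brain, and replicate 1 lay well below the other E861A brains. The genotype means were 248 ± 56.2 CPM and 355 ± 12.6 CPM (SD, n = 3). On the log2 scale E861A differed from wild type by -0.51 ± 0.12 (SE; 95% interval -0.77 to -0.25), with an adjusted p of 0.124 by edgeR's quasi-likelihood test with Benjamini-Hochberg adjustment. When same-numbered libraries were blocked, *Ttr* was lower by a log2 value of -0.54 ± 0.10 with an adjusted p of 0.0241. Over 8 alternatives in test, scaling, filter and block the adjusted p ran from 3.66e-20 to 0.453. The lowest came from the fit without a filter on low counts, which ignores how each gene varies. The next lowest was 0.00666, by the likelihood ratio test. An exact two-sided permutation test gave p = 0.1, the smallest that 3 against 3 libraries allow. By unadjusted p *Ttr* ranked 101 of the 13649 tested genes, and by the lowest log2 fold change it ranked 30.

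The size of the *Ttr* difference depended on E861A replicate 1. Without this library the log2 fold change was -0.33 ± 0.05, smaller but with a smaller SE, and the adjusted p was 0.00458 (edgeR, quasi-likelihood). Without E861A replicate 2 it was -0.60 ± 0.12 with an adjusted p of 0.0362. Omission of any other library gave values from -0.63 to -0.50, with adjusted p-values from 0.0635 to 0.316. Because no E861A brain reached a wild-type brain, the omission of 1 library could not turn the direction for *Ttr*, only its size.

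**Figure D2:**
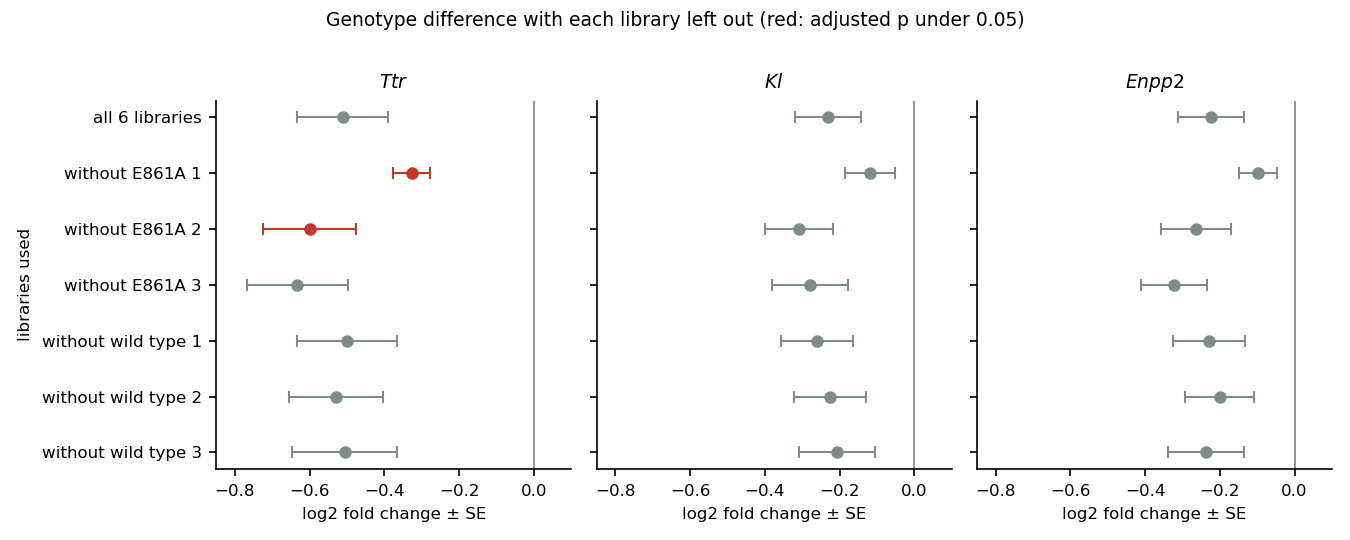
Log2 fold change of E861A over wild type with its SE (x axis) for *Ttr*, *Kl* and *Enpp2*, with all 6 libraries (top row) and with each library left out; red marks an adjusted p under 0.05. All points lie below 0, a direction fixed by the lack of overlap between genotypes. Those without E861A replicate 1 lie nearest to 0 (-0.33 for *Ttr*, -0.12 for *Kl* and -0.10 for *Enpp2*).

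*Enpp2* (ENSMUSG00000022425; NCBIM37, chromosome 15, 54670453 to 54751701) encodes autotaxin, the secreted enzyme that makes lysophosphatidic acid, and is also a gene of oligodendrocytes. Its CPM was 293, 367 and 396 in E861A and 413, 418 and 405 in wild type. The wild-type brains were tightly grouped, and the highest E861A brain came close to the lowest of them. The log2 fold change was -0.22 ± 0.09 (95% interval -0.41 to -0.03) with an adjusted p of 0.478, or 0.123 with the block, by edgeR's quasi-likelihood test. Without E861A replicate 1 the value for *Enpp2* was -0.10 ± 0.05. The 10 oligodendrocyte genes listed, another source of *Enpp2*, had 0 calls and 0 genes at an unadjusted p under 0.05. Their median log2 fold change was -0.02, and they summed to 4740 to 5030 CPM in E861A and 4634 to 5075 CPM in wild type.

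*Kl* (ENSMUSG00000058488; NCBIM37, chromosome 5, 151755182 to 151796384) encodes klotho, a co-receptor for the hormone FGF23 whose ectodomain is also shed into cerebrospinal fluid. The libraries gave 17.98, 22.9 and 22.5 CPM in E861A and 24.1, 24.7 and 25.9 CPM in wild type. Again no E861A brain reached a wild-type brain, and replicate 1 was the lowest. The log2 fold change of *Kl* was -0.23 ± 0.09 (95% interval -0.42 to -0.04), with an adjusted p of 0.462 by edgeR's quasi-likelihood test and 0.113 with the block. It was -0.12 ± 0.07 without E861A replicate 1. Kidney genes, markers of the main organ that expresses *Kl*, were at low levels: the 7 listed summed to 5.25 to 5.84 CPM in E861A and 4.37 to 5.04 CPM in wild type, and *Umod* had 0 counts in all 6 libraries, while *Cubn* had 65 to 95 counts, about as many as *Folr1* among the choroid plexus genes.

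Of the receptors, *Folr1* (ENSMUSG00000001827; NCBIM37, chromosome 7, 109006845 to 109019302) encodes folate receptor alpha, which carries folate across this epithelium into cerebrospinal fluid. *Folr1* stood at 1.70, 2.67 and 1.90 CPM in E861A and at 2.79, 2.44 and 2.32 CPM in wild type. Replicates 1 and 3 of E861A lay below all wild-type brains, whereas replicate 2 lay within their range. The log2 fold change was -0.24 ± 0.18, as large as those of *Kl* and *Enpp2*, but its 95% interval of -0.63 to 0.14 included 0 (adjusted p 0.717). At these counts, sampling alone gives an SD of 0.168 on the log2 scale, against an observed SD of 0.29 over the 6 libraries. Without E861A replicate 1 the log2 fold change of *Folr1* was -0.10 and without E861A replicate 2 it was -0.50, neither of them called. With all libraries the interval held both 0 and the value found for *Ttr*.

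*Prlr* (ENSMUSG00000005268; NCBIM37, chromosome 15, 10106993 to 10303504) encodes the prolactin receptor. It was the steadiest of the 10 genes, with 22.4, 20.9 and 23.4 CPM in E861A and 20.5, 24.7 and 23.4 CPM in wild type. The highest library exceeded the lowest by 1.21 times, and the genotypes overlapped throughout. The log2 fold change of *Prlr* was -0.04 ± 0.08 (95% interval -0.21 to 0.13; adjusted p 0.899). The level in E861A replicate 1, the library with 3274 counts of the ligand gene *Prl*, lay between those of the other E861A brains. In the annotation, 155 exonic bases of *Prlr* are shared with *Agxt2* on the same strand.

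The channels and transporters overlapped between genotypes. *Aqp1* (NCBIM37, chromosome 6, 55286426 to 55298549), the apical water channel, stood at 3.57, 2.78 and 2.57 CPM in E861A and 2.90, 2.44 and 3.03 CPM in wild type. *Slc4a5* (NCBIM37, chromosome 6, 83169822 to 83254939), an electrogenic sodium bicarbonate cotransporter, stood at 5.09, 3.86 and 4.36 CPM in E861A and 4.64, 4.12 and 3.61 CPM in wild type. For both genes the highest of all 6 libraries was E861A replicate 1, the library in which *Ttr*, *Enpp2*, *Kl* and *Folr1* were at their lowest. The log2 fold changes were 0.09 ± 0.15 for *Aqp1* (95% interval -0.23 to 0.41) and 0.10 ± 0.13 for *Slc4a5* (-0.19 to 0.39), and without that library they were -0.0387 and -0.00025.

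*Kcnj13* (NCBIM37, chromosome 1, 89282938 to 89291304) encodes the inward rectifier potassium channel Kir7.1, and *Clic6* (chromosome 16, 92485981 to 92541488) encodes a member of the chloride intracellular channel family. *Kcnj13* gave 2.91, 2.51 and 3.69 CPM in E861A and 3.10, 2.47 and 2.77 CPM in wild type. *Clic6* gave 14.6, 14.03 and 15.5 CPM in E861A and 13.7, 17.5 and 16.1 CPM in wild type. Both overlapped, with E861A replicate 3 the highest for *Kcnj13* and wild-type replicate 2 the highest for *Clic6*. The log2 fold changes were 0.12 ± 0.16 (95% interval -0.23 to 0.46) and -0.10 ± 0.09 (-0.30 to 0.10), with adjusted p-values of 0.863 and 0.774 by edgeR's quasi-likelihood test. Of the 1270 exonic bases of *Kcnj13*, 623 overlap exons of *Gigyf2* on the opposite strand, so its count is uncertain unless reads were counted by strand.

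*Otx2* (ENSMUSG00000021848; NCBIM37, chromosome 14, 49277354 to 49287319) encodes the homeodomain transcription factor that specifies and maintains the choroid plexus. *Otx2* stood at 5.47, 3.97 and 6.33 CPM in E861A and at 5.67, 5.25 and 5.18 CPM in wild type. The E861A brains held both the lowest and the highest value and the wild-type brains lay between them. The log2 fold change was -0.04 ± 0.15 (95% interval -0.36 to 0.27; adjusted p 0.954). The pineal gland and eye are other sites of *Otx2* and *Ttr*: the 10 matched genes of 11 listed for them summed to 11.1 to 12.8 CPM in E861A and 11.3 to 12.5 CPM in wild type, and *Crx* and *Rgr* had at most 3 counts in any library.

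OTX2 binds the core TAATCC. RefSeq promoter windows of 300 bases (250 before and 50 after a gene start) were at hand for 6 of the 10 genes, 11 windows in all, and the core lay on either strand of 1 of them, 1 of the 4 windows of *Otx2* itself. Over all promoters 7.06% held it. The bases around the match, with the core in capitals as it reads on the gene's strand (the reverse complement, GGATTA, beginning 211 bases before the gene start), are shown because they are the single match among these genes; they lie at chr14:48665288-48665347 of GRCm38.p6, minus strand.
*Otx2* promoter: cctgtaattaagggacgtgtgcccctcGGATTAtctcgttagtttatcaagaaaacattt

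The genes thus fell into different patterns across libraries. On TMM-scaled log2 CPM, E861A replicate 1 lay 0.71 below the gene mean for *Ttr*, 0.44 below for *Folr1*, 0.40 below for *Enpp2* and 0.38 below for *Kl*. In the same library *Aqp1* and *Slc4a5* lay 0.29 and 0.23 above their means, and *Kcnj13* and *Otx2* lay at -0.01 and 0.03. Averaged over the 10 genes the deviations were -0.15, -0.08 and 0.05 in E861A and 0.07, 0.06 and 0.05 in wild type. The SD of the CPM was larger in E861A for 8 of the 10 genes and larger in wild type for *Clic6* (1.94 against 0.719 CPM) and *Prlr* (2.16 against 1.26 CPM). The SD of log2 CPM over the 6 libraries was 0.38 for *Ttr*, larger than that of 99.1% of tested genes, and 0.11 for *Prlr*, against a median of 0.0864 over all tested genes. For *Ttr* counting error accounted for an SD of 0.0148. For *Aqp1* and *Slc4a5* the SD from counting error was 0.148 and 0.121, beside an observed SD of 0.17 each. Such SDs do not add, so these are not shares of the observed spread.

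**Figure D3:**
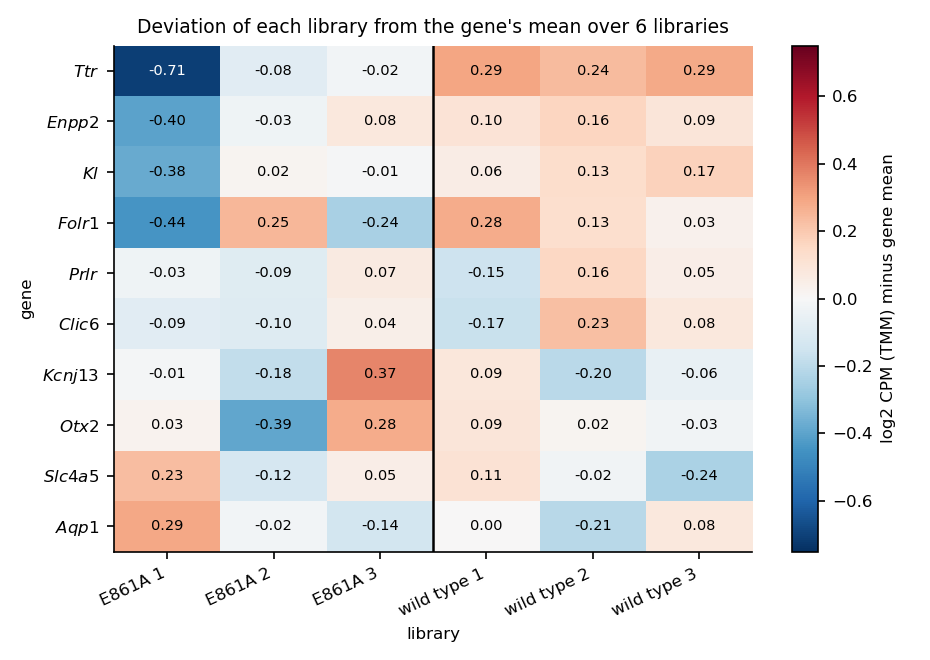
Deviation of log2 CPM (TMM-scaled) in each library (columns) from the gene's mean over 6 libraries (rows, choroid plexus genes); blue is below and red above the mean, and each cell gives its value. The left column, E861A replicate 1, runs from -0.71 for *Ttr* to 0.29 for *Aqp1*, and the 3 wild-type libraries are above the mean for *Ttr*, *Enpp2*, *Kl* and *Folr1*.

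Because *Ttr* is the dominant transcript of the epithelium, the other genes were also expressed per 1000 *Ttr* counts. *Enpp2* had 1600, 1342 and 1385 counts per 1000 *Ttr* counts in E861A and 1133, 1229 and 1129 in wild type. *Kl* had 98.1, 83.8 and 78.6 in E861A and 66.1, 72.7 and 72.1 in wild type. Since *Ttr* itself was lower in each E861A brain, these ratios restate that difference and add no support to it. They were higher in every E861A brain than in any wild-type brain for 6 of the 9 genes, *Enpp2*, *Kl*, *Prlr*, *Kcnj13*, *Aqp1* and *Slc4a5*. The mean log2 ratio was higher in E861A by 0.25 for *Folr1*, which overlapped, up to 0.66 for *Kcnj13*. Without E861A replicate 1 the range was 0.18 (*Folr1*) to 0.48 (*Kcnj13*), with *Aqp1* at 0.29 in place of 0.63 and *Slc4a5* at 0.34 in place of 0.65. Set against the mean of the other 9 genes instead, *Ttr* was lower in E861A without overlap (log2 difference -0.47, exact two-sided permutation p = 0.1, the smallest possible). Without E861A replicate 1 this difference was -0.28, and with any other library left out it ran from -0.58 to -0.46. This ratio too holds the lower *Ttr* counts of E861A, so it adds no support to the *Ttr* difference. *Folr1*, *Kl* and *Enpp2* gave -0.19, -0.14 and -0.13 on this scale (exact two-sided permutation p = 0.4, 0.3 and 0.2).

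**Figure D4:**
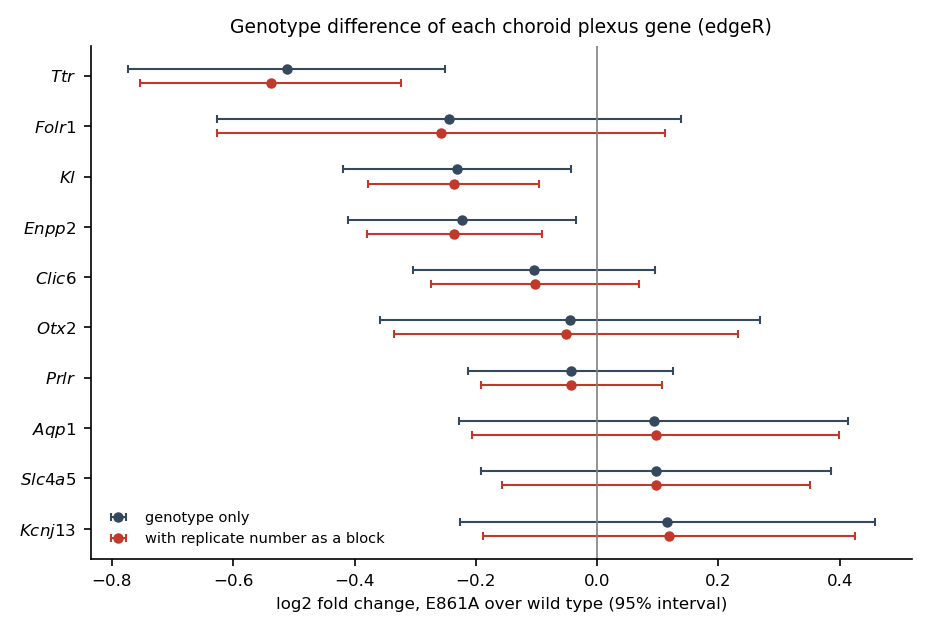
Log2 fold change of E861A over wild type with its 95% interval (x axis) for each choroid plexus gene, from edgeR with genotype alone (blue) and with the replicate number as a block (red). Intervals of *Ttr*, *Kl* and *Enpp2* exclude 0 in both fits, and those of the other 7 genes include 0.

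A longer list of genes of the same epithelium was then counted. Of 36 further choroid plexus genes listed, 34 were matched and 24 tested. By edgeR's quasi-likelihood test 0 of 24 were called, 0 with the block, and 1 had an unadjusted p under 0.05, *F5*, and DESeq2, limma-voom and the likelihood ratio test also called 0. The median log2 fold change was -0.02 (range -0.30 to 0.13), with 13 genes below 0 and 11 above. Their summed level was 441 to 459 CPM in E861A and 440 to 456 CPM in wild type, while the 10 genes described above summed to 550, 714 and 763 CPM in E861A and 855, 843 and 846 CPM in wild type. *Ttr* and *Enpp2* made up 86.6% to 90.9% of the sum of these 10 genes, and the other 8 genes summed to 73.7, 73.6 and 80.2 CPM in E861A and 77.4, 83.7 and 82.2 CPM in wild type.

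The most abundant of the further genes are also made by neurons or other cells, so the summed level of that list does not measure this epithelium alone. *Trpm3*, a cation channel, stood at 170 ± 9.48 CPM in E861A and 163 ± 4.81 CPM in wild type, and *Htr2c*, the serotonin 2C receptor, at 69.1 ± 6.80 and 73.3 ± 4.22 CPM. *Cab39l*, which encodes a kinase scaffold protein, stood at 32.4 ± 1.21 and 33.4 ± 0.610 CPM. Their log2 fold changes were 0.06 ± 0.05, -0.08 ± 0.07 and -0.04 ± 0.06. The largest differences in the list were those of *Sostdc1*, a secreted BMP and Wnt antagonist (-0.30 ± 0.15, adjusted p 0.589), *Msx1*, a homeobox factor (-0.26 ± 0.15, adjusted p 0.640), and *F5*, coagulation factor V (-0.22 ± 0.09, adjusted p 0.534). *Sostdc1* gave 2.22, 2.89 and 2.53 CPM in E861A and 3.65, 2.71 and 3.14 CPM in wild type, and the genotypes overlapped. *F5* gave 9.80, 9.98 and 9.87 CPM in E861A and 10.3, 12.6 and 11.5 CPM in wild type, without overlap. *Ace*, the gene of angiotensin-converting enzyme and named after its values were seen, was the single gene of this list that was higher in E861A without overlap (log2 fold change 0.07 ± 0.06, adjusted p 0.791).

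Of 19 genes for the pumps, cotransporters and carbonic anhydrases of fluid secretion that other brain cells also use, 17 were tested and 0 called by the quasi-likelihood test, and the median of their log2 fold changes was -0.09. By sign 12 lay below 0 and 5 above, against 50.5% of tested genes below 0. Without overlap 3 were lower and 1 higher in E861A, against 13.8% of tested genes in either direction. One of them, *Car2* (carbonic anhydrase 2), had an unadjusted p under 0.05, with a log2 fold change of -0.14 ± 0.06 and an adjusted p of 0.503.

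Markers of cells that lie beside the choroid plexus epithelium were also counted, and their levels differed in both directions. Of 18 ependymal genes, 7 were tested and 0 called (1 at an unadjusted p under 0.05). Their log2 fold changes had a median of 0.04 and they summed to 81.6 to 90.6 CPM in E861A and 86.6 to 92.1 CPM in wild type. With the block 1, *Tppp3*, was called as lower, against 1.16% of tested genes called in either direction. Its log2 fold change was -0.27 ± 0.07, with a quasi-likelihood adjusted p of 0.135 without the block and 0.0334 with it. Of 16 meningeal and choroid plexus stromal fibroblast genes, all tested, 11 had log2 fold changes above 0 and 5 below. By the quasi-likelihood test 6 were higher and 1 lower at an unadjusted p under 0.05, against 9.01% of tested genes in either direction. After adjustment 3 were called, all higher in E861A, against 0.506% of tested genes called in either direction. These were *Ogn*, a small proteoglycan (0.55 ± 0.10, adjusted p 0.0150), *Col1a2*, a chain of type I collagen (0.42 ± 0.08, adjusted p 0.0199), and *Col3a1*, type III collagen (0.57 ± 0.11, adjusted p 0.0316). The fibroblast genes summed to 222, 253 and 250 CPM in E861A and 199, 215 and 204 CPM in wild type, and their median log2 fold change was 0.16. Without E861A replicate 3 the quasi-likelihood test called 0 of them, and without wild-type replicate 3 it called 1; *Ogn* also lost its call without E861A replicate 1, *Col1a2* without wild-type replicate 1, and *Col3a1* without E861A replicate 2 or wild-type replicate 2. All 12 endothelial genes had log2 fold changes below 0 (median -0.24). By the quasi-likelihood test 6 of them had an unadjusted p under 0.05, against 4.23% of tested genes that were lower at this level. After adjustment 0 were called without the block. With the block 2 were called (*Slc2a1*, adjusted p 0.0147, and *Mfsd2a*, adjusted p 0.0281), against 1.16% of tested genes in either direction. DESeq2 called 2 and the likelihood ratio test 3, against 82 and 139 of the 13649 tested genes. The endothelial genes summed to 236, 292 and 264 CPM in E861A and 338, 303 and 295 CPM in wild type, so E861A replicate 1 was lowest here as for *Ttr*. The 3 matched blood genes of 5 listed had a median log2 fold change of -0.48, 0 calls and 0 genes at an unadjusted p under 0.05. They summed to 37.3, 26.5 and 28.8 CPM in E861A and 30.3, 51.5 and 32.6 CPM in wild type. Only wild-type replicate 2 lay above all E861A brains, so the median rests largely on that library. The part that these cells or the pituitary genes of E861A replicate 1 play in the level of *Ttr*, *Enpp2* and *Kl* was not tested.

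**Figure D5:**
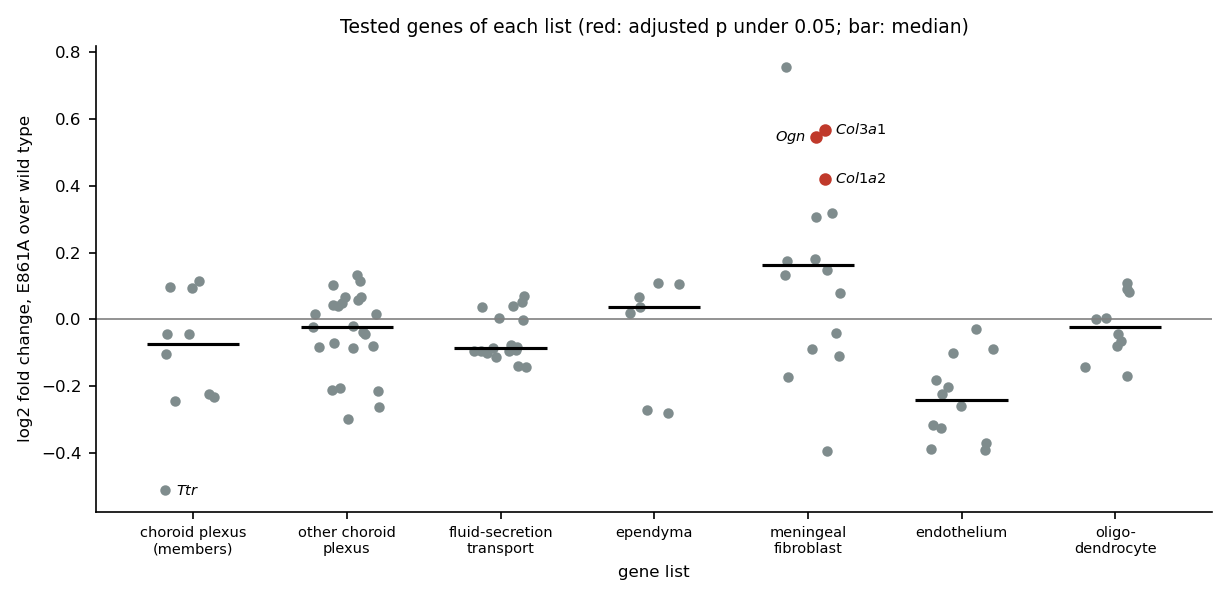
Log2 fold change of E861A over wild type (y axis) of the tested genes of each list (x axis); each point is 1 gene, bars are medians and red marks an adjusted p under 0.05. *Ttr* lies at -0.51 below all other genes shown, the fibroblast genes have a median of 0.16 and the endothelial genes one of -0.24.

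The mean profile of the 10 genes over the 6 libraries, their average centred log2 CPM, was shallow, from -0.15 to 0.07. The 10 tested genes outside the group nearest to it were *Crybg3*, *Tmem5*, *Tfg*, *Ddx3x*, *Tsg101*, *Prr18*, *Taf15*, *Micall1*, *Ankmy2* and *Lypla1*, with root mean square differences over the 6 libraries of 0.0207 to 0.0313 on the log2 scale. The choroid plexus genes themselves lay 0.110 (*Prlr*) to 0.275 (*Ttr*) from their own mean profile. In all, 489 tested genes (3.58%) lay within 0.0627 of it, nearer than any of the 10 genes that made it.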

How the data were processed

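Per the labels, ribosome-depleted total RNA was sequenced as stranded paired-end libraries on a single run. The authors deposited raw counts per gene, aligned to mm9 (NCBIM37); the submitters' processing notes name STAR 2.5.2a, Trimmomatic 0.36 and edgeR, and the strand setting of the counting is not given in the sources used here. A deposited table of the authors' own fold changes and false discovery rates, and CPM tables, were not used.

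CPM was computed from column totals. The test covered the 13649 genes that reached a CPM of 2 in 3 of 3 replicates of a genotype. It was made with edgeR 4.0.16 in R 4.3.3 (TMM factors 0.985 to 1.02, quasi-likelihood test, genotype only, Benjamini-Hochberg adjustment over all tested genes, threshold 0.05). The procedure was tested on simulated data. Likeness used TMM-scaled log2 CPM with a prior count of 0.5. P-values of the quasi-likelihood test rest on the spread between 3 animals per genotype, moderated by that of other genes (prior degrees of freedom 9.72). Counting errors cover counting only, as reads carried no molecular identifiers. Gene models were GENCODE vM1, in which all identifiers were found; promoters were RefSeq windows of GRCm38.p6.

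Libraries that share a replicate number tended to deviate together from their genotype means (r over genes 0.220, 0.325 and 0.111), so numbers were treated as pairs in a further fit. Libraries of different numbers gave r from -0.252 to 0.052, not far below the weakest same-number value. Since deviations were centred within each genotype, positive values for some pairs force negative values for others. No source says that these animals were paired. The pairing was read from these same counts, so a call made only with the block adds no independent support. The value with the replicate block is printed beside genes whose call it changes. Alternatives were DESeq2 1.42.0, the likelihood ratio test, limma-voom (limma 3.58.1), RLE factors, column totals, other filters, the block and omission of each library.

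The members and gene lists were chosen with earlier results of these data known. Named genes are all members, called genes of other lists (at most 5 each), the 3 most abundant and 3 most different further choroid plexus genes, the 10 genes nearest the mean profile, and pituitary genes more than 5 times higher in 1 library than in any other. *Ace*, *Car2*, *Chgb*, *Tppp3*, *Slc2a1*, *Mfsd2a*, *Umod*, *Cubn*, *Crx* and *Rgr* were named after their values were seen.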

Additional observations from a re-analysis of the deposited data

How the results depend on the processing

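Scaling, filter and test left the direction of all 10 choroid plexus genes as reported. *Ttr* lay between -0.54 and -0.51 (log2) under the 8 alternatives with all libraries, with adjusted p-values from 3.66e-20 to 0.453; it was called by the likelihood ratio test (-0.51), without a filter on low counts (-0.52, a fit with infinite prior degrees of freedom, which ignores how each gene varies) and with the replicate block (-0.54). *Enpp2* was called only without a filter (-0.23). The count of the 10 genes called was 1 by the likelihood ratio test, 2 without a filter, 1 with the replicate block and 0 to 1 with 1 library left out; it was 1 without E861A replicate 1 or 2. The block changed no other call among these genes. Over all tested genes, 69 were called, and 139 by the likelihood ratio test, 110 with edgeR's own filter, 376 without a filter, 158 with the block (all 69 and 89 more) and 42 to 113 with 1 library left out; the lowest came without E861A replicate 3, and 108 were called without wild-type replicate 2.

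With 1 library left out, *Ttr* ranged from -0.63 to -0.33, *Kl* from -0.31 to -0.12, *Enpp2* from -0.32 to -0.10, *Folr1* from -0.50 to -0.10 and *Clic6* from -0.20 to -0.0088. The omission of single libraries from the ratios was chosen after seeing the data and turned no direction, which for ratios without overlap was fixed in advance. Direction turned for 5 genes near 0. *Kcnj13* ranged from -0.0469 (without E861A replicate 3) to 0.237, *Otx2* from -0.203 to 0.127 (without E861A replicate 2), *Aqp1* from -0.0387 (without E861A replicate 1) to 0.173, *Slc4a5* from -0.00025 (without E861A replicate 1) to 0.187 and *Prlr* from -0.123 to 0.0285 (without wild-type replicate 2). *Folr1*, *Kl* and *Enpp2*, higher in E861A relative to *Ttr*, were lower relative to the mean of the other 9 genes (-0.19, -0.14 and -0.13); this follows from the change of denominator. The cause of the other changes was not tested. At 49 to 101 counts per library, depth limits *Folr1* most.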
